A study of Mus musculus with 9 samples.

Results

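Cytochrome P450 enzymes are heme proteins, encoded by genes whose symbols start with Cyp, that insert an oxygen atom into lipids, hormones, vitamins and foreign compounds. Of the 19938 genes measured, 84 were taken as P450 members: every gene whose probe set carries exactly 1 symbol starting with Cyp and a digit, leaving out the sterol synthesis enzyme Cyp51 and symbols ending in -ps. The rule uses names only and no measured value. Each of the 84 genes had 1 probe set, and they fall into 14 families, of which family 2 is the largest with 44 genes, followed by family 4 with 15 and family 3 with 6. Cyp19a1 and Cyp24a1 were not analysed here.

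The samples were whole ears of female C57BL/6 mice, 7 to 9 weeks old, with 3 arrays in each of 3 groups and RNA hybridised to Affymetrix Mouse Gene 1.0 ST arrays. The anisomycin group received this protein synthesis inhibitor, which also activates stress kinases, daily for 5 days as a solution of 2 mg/ml, with 99.5% ethanol as the solvent and 10 µl spread per ear surface. The imiquimod group received 10 mg of a 5% cream of this Toll-like receptor agonist on the ear, daily for 5 days. The vehicle group is labelled as vehicle treated, without the vehicle's name or its number of days, so ethanol and cream base each cannot be told apart from the drug they carried. The labels number the 3 samples of a group but do not say whether each came from a separate mouse, so the tests measure the spread between these samples. All values are log2 expression values on the authors' scale, and a difference of 1 is a 2-fold change. A gene was called changed when limma's moderated test, fitted to all 19938 genes, gave a Benjamini-Hochberg adjusted p below 0.05.

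In skin, P450 enzymes set the local level of signals that keratinocytes, sebaceous cells, fibroblasts and leukocytes respond to. Family 26 breaks down retinoic acid, family 27 acts on vitamin D and sterols, families 7 and 39 hydroxylate oxysterols, and families 11 and 17 make steroid hormones. Family 4 enzymes hydroxylate the end of fatty acid chains, and this includes the very long fatty acids from which the acylceramides of the skin barrier are built. Families 1 to 3 oxidise drugs, pollutants and arachidonic acid. Many of these genes are under the control of ligand-activated transcription factors, among them the Ah receptor, the retinoic acid receptors and the receptors for vitamin D and xenobiotics.

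The upstream sequences of 4 members that recur in the results are printed here, because they show letters that 2 of these factors are known to bind: AGTTCA, a nuclear receptor motif found in retinoic acid response elements, and GCGTG, the core bound by the Ah receptor. Each sequence is the 250 bases before the transcription start, read along the gene's own strand from RefSeq on GRCm38.p6, with matches on either strand in capitals. Cyp26a1 lies on chromosome 19, plus strand (chr19:37697558-37697807), and its 2 matches are to AGTTCA on the opposite strand, where they read TGAACT. Cyp2j9 lies on chromosome 4, minus strand (chr4:96591486-96591735). Cyp1b1 lies on chromosome 17, minus strand (chr17:79715062-79715311). Cyp4f39 lies on chromosome 17, plus strand (chr17:32452473-32452722). In these last 3 sequences the capitals mark GCGTG, or CACGC where the match is on the opposite strand.
Cyp26a1: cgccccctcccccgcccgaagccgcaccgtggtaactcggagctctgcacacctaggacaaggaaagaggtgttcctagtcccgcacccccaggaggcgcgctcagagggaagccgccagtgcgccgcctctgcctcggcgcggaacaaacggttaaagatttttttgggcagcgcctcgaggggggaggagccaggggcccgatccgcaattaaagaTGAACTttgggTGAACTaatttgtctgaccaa
Cyp2j9: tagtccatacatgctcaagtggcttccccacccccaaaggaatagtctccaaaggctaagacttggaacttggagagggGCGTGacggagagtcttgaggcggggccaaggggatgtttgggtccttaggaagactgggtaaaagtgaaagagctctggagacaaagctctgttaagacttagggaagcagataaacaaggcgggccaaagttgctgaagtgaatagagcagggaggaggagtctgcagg
Cyp1b1: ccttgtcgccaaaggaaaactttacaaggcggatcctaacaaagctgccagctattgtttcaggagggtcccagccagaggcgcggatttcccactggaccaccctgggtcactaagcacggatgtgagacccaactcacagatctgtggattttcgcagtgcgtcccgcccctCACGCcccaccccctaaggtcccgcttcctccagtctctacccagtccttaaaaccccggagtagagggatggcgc
Cyp4f39: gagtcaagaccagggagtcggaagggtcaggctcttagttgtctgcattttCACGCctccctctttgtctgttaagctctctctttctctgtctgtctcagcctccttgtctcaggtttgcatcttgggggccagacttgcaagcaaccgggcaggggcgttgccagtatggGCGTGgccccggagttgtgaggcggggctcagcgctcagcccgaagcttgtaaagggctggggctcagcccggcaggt

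The 2 AGTTCA matches of Cyp26a1 stand at bases -32 to -27 and -21 to -16, close to the start and 5 bases apart. Cyp1b1 holds GCGTG at -76 to -72, Cyp2j9 at -171 to -167, and Cyp4f39 at -199 to -195 and -78 to -74. A RefSeq promoter was available for 63 of the 84 members. In this window 14 of the 63 held GCGTG (22.2%), against 28.2% of all 27025 promoters, and 6 held AGTTCA (9.52%), against 11.9%. The TATA box letters TATAAA were found in 23 of the 63 members (36.5%) and in 13.0% of all promoters, AGGTCA in 14 (22.2%) and in 13.8%, and the AP-1 letters TGANTCA in 4 (6.35%) and in 6.87%. All motifs were searched on both strands. These matches describe the letters only.

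Most P450 genes gave a low signal in ear skin. Of the 84 members, 52 had a mean level below 5.49, under which the lowest tertile of all genes lies, 12 lay between, and 20 were at or above the median of all genes, 6.53. Levels are those of probe sets of unequal sequence and are not ranked against each other here. Several subfamilies hold close copies, most of them in gene clusters, whose probes may share signal, so values for single members of the Cyp2a, Cyp2b, Cyp2c, Cyp2d, Cyp2j, Cyp3a, Cyp4a and Cyp4f subfamilies are uncertain in this respect.

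After anisomycin, 30 of the 84 P450 genes changed (35.7%), against 45.6% of all genes tested. Of these, 10 rose and 20 fell, where 22.3% of all genes rose and 23.3% fell. Among the 20 members at or above the median level of all genes, 17 changed, 6 up and 11 down, against 66.7% of all genes at such levels. Among the 52 low members 7 changed (13.5%), against 14.1% of all low genes. The median log2 difference of the members was 0.01, and that of all genes was -0.01. The split of 10 up and 20 down depends on the scaling: with each array centred on its median it was 22 up and 17 down, or 56.4% of the members' calls higher, where 61.5% of the calls over all genes were higher under the same scaling.

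After imiquimod, 23 members changed (27.4%), against 42.7% of all genes, and 5 rose and 18 fell, where 20.4% of all genes rose and 22.4% fell. At or above the median level 15 of the 20 changed, against 62.5% of all genes at such levels, and 5 of the 52 low members did, against 13% of all low genes. The members' median difference was -0.01, beside -0.03 for all genes. With arrays centred on their medians the split was 8 up and 17 down, or 32% of the members' calls higher, where 58.1% of the calls over all genes were. No array of the anisomycin group overlapped the vehicle arrays for 38 members, against 51.3% of all genes, and no imiquimod array did for 28 members, against 51.8%.

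The comparisons share the vehicle arrays, so calls made in both are not independent, and their number is not read as a result. Called higher in each were Cyp1b1, Cyp4f18, Cyp4f39 and Cyp7b1. Called lower in each were Cyp2d9, Cyp2d22, Cyp2e1, Cyp2f2, Cyp2g1, Cyp2j9, Cyp2u1, Cyp2w1, Cyp3a25, Cyp4b1, Cyp4f13, Cyp17a1, Cyp26a1, Cyp27a1 and Cyp39a1. Of the 84 members, 49 were called in none of the 3 comparisons. The family, cluster, pathway and marker counts below stand beside 45.6% of all genes called with anisomycin and 42.7% with imiquimod. They are not read as results about those sets. The plot of single arrays shows 12 of the members described below.

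**Figure D1:**
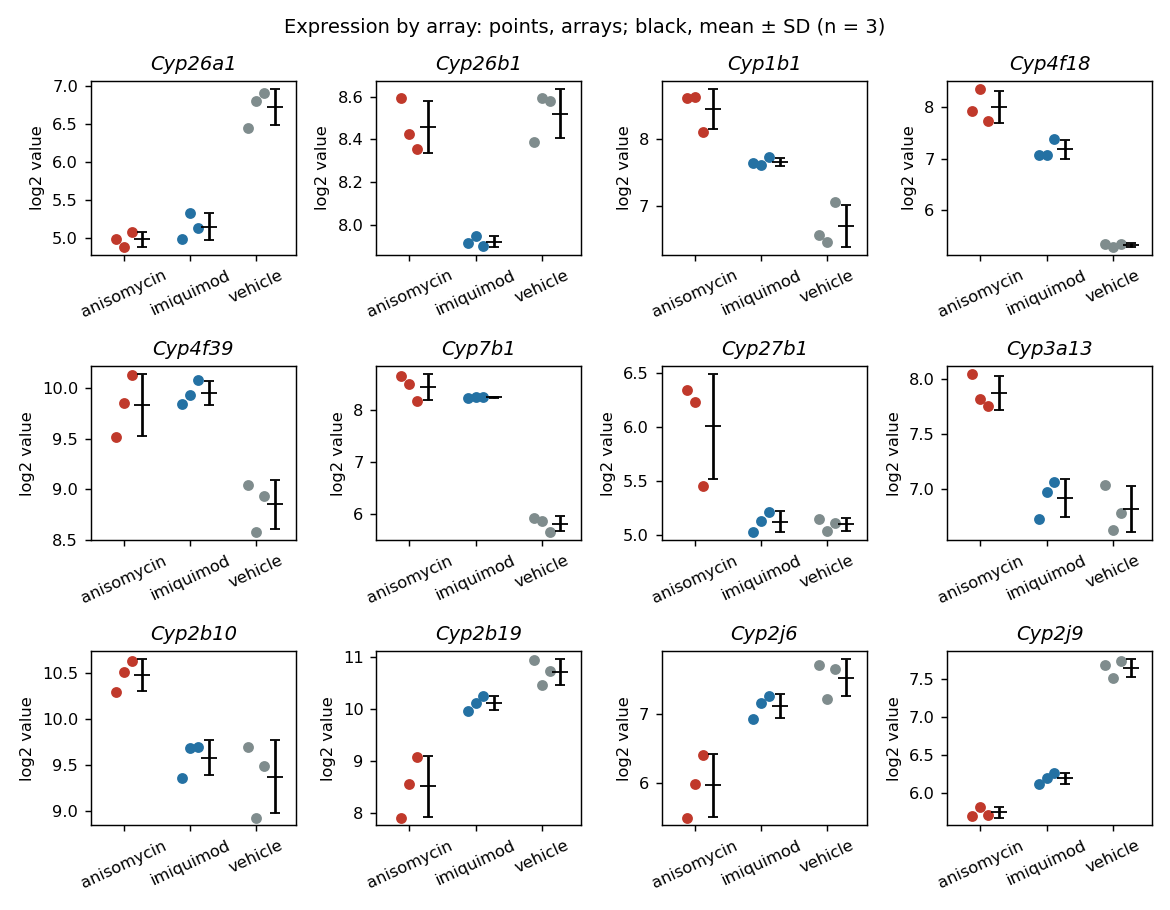
Log2 expression value of P450 genes on each array (points; 3 arrays per group) in the anisomycin, imiquimod and vehicle groups, with the mean and SD of each group in black and an axis of its own for each gene that does not start at 0. Cyp4f18 and Cyp7b1 sit above vehicle on all 6 treated arrays, and Cyp26a1, Cyp2j9 and Cyp2b19 sit below vehicle on all 6. Cyp2b10 and Cyp3a13 stand apart from vehicle with anisomycin.

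The retinoic acid enzymes came apart. Cyp26a1, the retinoic acid hydroxylase that retinoic acid itself induces, had values of 4.98, 4.87 and 5.08 in anisomycin ears, 4.98, 5.33 and 5.13 in imiquimod ears, and 6.45, 6.80 and 6.92 in vehicle ears. All 6 treated arrays were below all vehicle arrays. It fell by 1.75 with anisomycin (SE 0.13, adjusted p 5.2e-06) and by 1.58 with imiquimod (adjusted p 1.38e-05), and the difference between the treatments was -0.17 (adjusted p 0.43). The treated means, 4.98 and 5.15, lay below 5.49, where signal near background may limit the sizes of these differences.

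Cyp26b1, the related hydroxylase that limits retinoic acid in skin and its appendages, read 8.59, 8.42 and 8.35 with anisomycin, 7.91, 7.95 and 7.90 with imiquimod, and 8.39, 8.60 and 8.58 in vehicle ears. The imiquimod arrays were the lowest of the 9. Its difference from vehicle was -0.06 with anisomycin (SE 0.08, adjusted p 0.544), and it fell by 0.60 with imiquimod (adjusted p 0.000194). The 2 treatments differed by 0.54 in this gene, anisomycin over imiquimod (adjusted p 0.0019). Cyp26c1, the third hydroxylase and the neighbour of Cyp26a1 on chromosome 19, differed from vehicle by -0.05 with anisomycin and -0.08 with imiquimod, and neither was called.

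Of 22 other measured genes that bind, make or sense retinoids, 9 rose and 6 fell with anisomycin, and 8 rose and 4 fell with imiquimod. Aldh1a3, which makes retinoic acid from retinal, rose by 4.15 with anisomycin and by 1.00 with imiquimod. Dhrs9, a retinol dehydrogenase, rose by 3.36 and 3.19, and the retinoic acid binding proteins Fabp5 (2.41 and 2.78) and Crabp2 (2.35 and 1.86) rose with both, anisomycin given first. Aldh1a1, another retinal dehydrogenase, fell by 1.68 with anisomycin and by 1.46 with imiquimod.

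**Figure D2:**
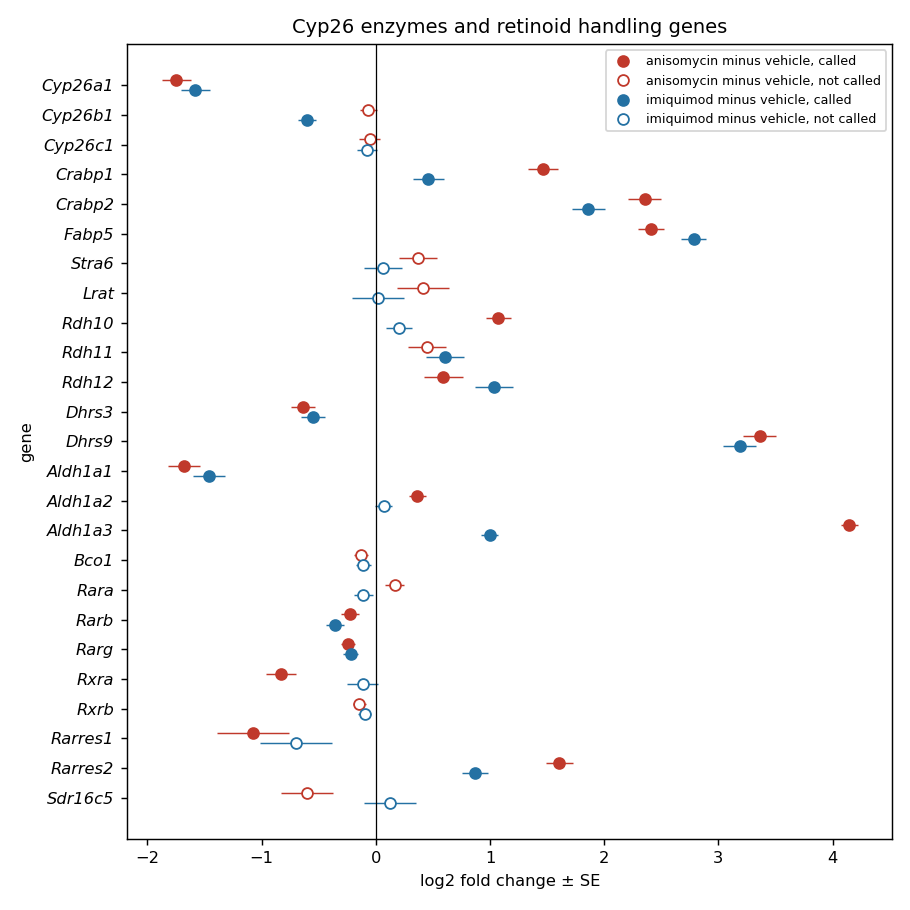
Log2 difference from vehicle of the 3 Cyp26 genes and of measured retinoid handling genes, for anisomycin and imiquimod (points, each with 1 standard error either side). Cyp26a1 lies near -1.75 and -1.58 for the treatments, Cyp26b1 lies apart from 0 with imiquimod at -0.60, and Aldh1a3 is farthest to the right with anisomycin at 4.15.

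Both vitamin D and sterol family 27 members changed with anisomycin, in opposite directions. Cyp27b1, the enzyme that makes active vitamin D and is present in keratinocytes and macrophages, read 6.34, 6.23 and 5.45 in anisomycin ears, 5.02, 5.12 and 5.21 in imiquimod ears, and 5.15, 5.03 and 5.11 in vehicle ears. Every anisomycin array was above the other 6, and anisomycin replicate 3 was the closest to them. It rose by 0.91 with anisomycin (SE 0.19, adjusted p 0.00372), and differed by 0.02 with imiquimod (adjusted p 0.94). The treatments differed by 0.89 (adjusted p 0.0126), a call that ended without anisomycin replicate 2 (adjusted p 0.0537) or imiquimod replicate 1 (adjusted p 0.0513). The imiquimod and vehicle means, 5.12 and 5.10, lay below 5.49, where signal near background may limit sizes or hide a difference.

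Cyp27a1, the mitochondrial sterol side-chain hydroxylase, which also hydroxylates vitamin D and belongs to the bile acid pathway too, read 6.65, 6.74 and 6.96 with anisomycin, 6.72, 6.94 and 6.96 with imiquimod, and 7.51, 7.95 and 7.75 in vehicle ears. Vehicle arrays were above all treated arrays. It fell by 0.95 with anisomycin (SE 0.12, adjusted p 0.000164) and by 0.86 with imiquimod (adjusted p 0.000357). Of 7 measured genes for vitamin D sensing and transport, 2 rose and 3 fell with anisomycin, and 1 rose and 2 fell with imiquimod. The calcium channel Trpv6 fell by 1.26 with anisomycin and by 0.74 with imiquimod, and the receptor Vdr rose by 0.48 with anisomycin and differed by 0.03 with imiquimod, which was not called. Cubn fell by 0.44 and by 0.54, and Pdia3 rose by 0.40 and 0.62. Rxra fell by 0.83 with anisomycin, beside -0.12 with imiquimod, which was not called.

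The oxysterol enzymes held one of the largest rises among the members. Cyp7b1, an oxysterol hydroxylase that clears sterol ligands of nuclear and chemoattractant receptors, read 8.66, 8.51 and 8.17 with anisomycin, 8.24, 8.25 and 8.25 with imiquimod, and 5.93, 5.87 and 5.65 in vehicle ears. The gap between the lowest treated array and the highest vehicle array was wider than the spread within any group. The rise was 2.63 with anisomycin (SE 0.12, adjusted p 3.11e-07), a 6.19-fold level, and 2.43 with imiquimod (adjusted p 8.04e-07), a 5.38-fold level. The difference between the treatments was 0.20 (adjusted p 0.286).

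Cyp39a1, another oxysterol hydroxylase, moved the other way, with 6.50, 6.85 and 7.13 in anisomycin ears, 7.24, 7.13 and 7.47 in imiquimod ears, and 8.46, 8.04 and 8.45 in vehicle ears. It fell by 1.49 with anisomycin (SE 0.17, adjusted p 7.72e-05) and by 1.04 with imiquimod (adjusted p 0.000895). Cyp7a1, the entry enzyme of bile acid synthesis in liver, was low in every group and was not called (-0.01 and 0.06). Cyp46a1, the brain cholesterol hydroxylase, fell by 0.21 with anisomycin and was not called with imiquimod.

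The steroid hormone enzymes fell where they changed. Cyp11a1, which cleaves the cholesterol side chain to start steroid synthesis, read 5.59, 5.67 and 5.86 with anisomycin, 6.42, 6.20 and 6.30 with imiquimod, and 6.42, 6.29 and 6.23 in vehicle ears. The anisomycin arrays were below the other 6. It fell by 0.61 with anisomycin (SE 0.09, adjusted p 0.000322), differed by -0.01 with imiquimod (adjusted p 0.942), and was 0.60 lower in anisomycin than in imiquimod ears (adjusted p 0.00203). Cyp17a1, the hydroxylase and lyase of androgen synthesis, read 6.35, 6.54 and 7.19 with anisomycin, 6.67, 7.02 and 7.23 with imiquimod, and 7.89, 7.35 and 8.18 in vehicle ears, so no treated array reached the lowest vehicle array. It fell by 1.11 with anisomycin (SE 0.26, adjusted p 0.00593) and by 0.83 with imiquimod (adjusted p 0.0275), and the imiquimod call ended on leaving out imiquimod replicate 1 or 2 or vehicle replicate 1 or 3 (adjusted p 0.064 to 0.103).

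Cyp11b1, Cyp11b2 and Cyp21a1, which make corticosteroids in the adrenal gland, were not called, with differences between -0.20 and 0.07. Of 19 other measured steroid genes, 3 rose and 5 fell with anisomycin, and 5 rose and 4 fell with imiquimod. Hsd17b2, which inactivates sex steroids, rose by 2.10 and 1.28, and the sterol and oestrogen enzyme Hsd17b7 rose by 1.07 and 1.30. The mineralocorticoid receptor Nr3c2 fell by 1.25 and 1.09. Hsd3b6 fell by 1.39 with anisomycin, beside -0.27 with imiquimod, which was not called. The glucocorticoid receptor Nr3c1 fell by 0.60 with anisomycin and by 1.01 with imiquimod.

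Family 4 held the largest rise of any member against vehicle. Cyp4f18, which hydroxylates leukotrienes and other fatty acids in mouse neutrophils and related cells, read 7.93, 8.36 and 7.74 in anisomycin ears, 7.07, 7.07 and 7.39 in imiquimod ears, and 5.34, 5.27 and 5.34 in vehicle ears. The 3 groups did not overlap. It rose by 2.69 with anisomycin (SE 0.15, adjusted p 1e-06), a 6.47-fold level, and by 1.86 with imiquimod (adjusted p 1.14e-05), a 3.64-fold level. It was 0.83 higher in anisomycin than in imiquimod ears (adjusted p 0.00462). The vehicle mean, 5.32, lay below 5.49, where signal near background may limit the sizes of the rises.

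In these bulk samples fewer or more cells of a type and less or more RNA per cell cannot be told apart. Beside the Cyp4f18 values, 9 of 10 neutrophil markers rose with each treatment, and their mean log2 level was 8.04 to 8.44 in anisomycin, 8.47 to 8.59 in imiquimod and 5.16 to 5.28 in vehicle ears. Of 10 macrophage markers, 9 rose with anisomycin and 8 with imiquimod, at 8.85 to 9.02, 8.69 to 8.79 and 7.33 to 7.47 in the anisomycin, imiquimod and vehicle arrays. Between anisomycin and imiquimod ears, 3 of the 10 neutrophil markers were higher and 5 lower with anisomycin, and 5 of the 10 macrophage markers were higher and 2 lower. The part of these cells in the Cyp4f18 and Cyp7b1 values was not tested.

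Cyp4f39, the mouse counterpart of human CYP4F22, which makes the omega-hydroxylated fatty acids of barrier acylceramides, read 9.52, 9.85 and 10.13 with anisomycin, 9.85, 9.93 and 10.08 with imiquimod, and 9.04, 8.57 and 8.93 in vehicle ears. All treated arrays were above all vehicle arrays. It rose by 0.98 with anisomycin (SE 0.16, adjusted p 0.000771) and by 1.10 with imiquimod (adjusted p 0.000444). Of 14 other measured genes of the acylceramide barrier pathway, 10 rose with anisomycin and 11 with imiquimod, and none was called lower. They included Cers3, the ceramide synthase for very long fatty acids (1.89 with anisomycin and 2.09 with imiquimod), Alox12b, which oxidises the acylceramide (2.05 and 1.61), the crosslinking enzyme Tgm1 (1.86 and 1.94), Sdr9c7 (1.66 and 1.89) and the glucosyltransferase Ugcg (2.26 and 1.58).

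Cyp4b1, a fatty acid and xenobiotic hydroxylase, fell, with 6.67, 7.03 and 7.17 in anisomycin ears, 7.06, 6.96 and 7.02 in imiquimod ears, and 7.81, 7.87 and 7.73 in vehicle ears. The fall was 0.85 with anisomycin (SE 0.11, adjusted p 0.000193) and 0.79 with imiquimod (adjusted p 0.000343). Cyp4f13, a further subfamily 4F hydroxylase, read 7.90, 7.80 and 7.84 in anisomycin ears, 7.55, 7.64 and 7.77 in imiquimod ears, and 8.31, 8.32 and 8.20 in vehicle ears, and fell by 0.43 (adjusted p 0.000559) and by 0.62 (adjusted p 7.18e-05). Cyp4f37 fell by 0.41 with imiquimod. None of the 5 Cyp4a genes, the fatty acid hydroxylases that peroxisome proliferators induce in liver, was called, and Cyp4a12b differed by 0.02 with anisomycin and -0.01 with imiquimod. In all, 4 of the 15 family 4 genes changed with anisomycin (26.7%), 2 up and 2 down, against 45.6% of all genes. With imiquimod 5 changed (33.3%), 2 up and 3 down, against 42.7% of all genes.

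In family 1, Cyp1b1 was the member that changed. This enzyme oxidises polycyclic hydrocarbons and oestrogens, is induced through the Ah receptor, and is found in stromal cells. It read 8.61, 8.63 and 8.10 with anisomycin, 7.63, 7.61 and 7.73 with imiquimod, and 6.57, 6.47 and 7.05 in vehicle ears, and the 3 groups did not overlap. The rise was 1.75 with anisomycin (SE 0.17, adjusted p 3.05e-05) and 0.96 with imiquimod (adjusted p 0.00148), and anisomycin ears were 0.79 above imiquimod ears (adjusted p 0.012), a call that ended without anisomycin replicate 2 (adjusted p 0.0516).

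Cyp1a1, the most widely used reporter of Ah receptor activity, read 5.09, 5.72 and 6.05 with anisomycin, 5.70, 6.10 and 6.35 with imiquimod, and 5.30, 5.23 and 5.70 in vehicle ears. The anisomycin arrays spanned the vehicle arrays, and imiquimod replicate 1 equalled the highest vehicle array to the second decimal. The differences from vehicle were 0.21 (SE 0.25, adjusted p 0.548) and 0.64 (adjusted p 0.0654). The imiquimod difference passed the threshold under 8 of the alternative settings that keep the samples unpaired, with adjusted p 0.0222 to 0.0461. Cyp1a2, the liver form, was low and not called (0.05 and 0.08).

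Of 9 other measured genes of the Ah receptor pathway, 2 rose and 3 fell with anisomycin, and 3 rose and 5 fell with imiquimod. Among these partners and targets of the receptor, Tiparp rose by 1.98 with anisomycin and by 1.38 with imiquimod, and the chaperone Ptges3 rose by 1.16 and 1.19. Aldh3a1 and Gstm1, detoxification genes of the same list, fell by 2.24 and 2.03 with anisomycin and by 0.80 and 0.94 with imiquimod. Nqo1 rose by 0.76 with imiquimod, beside -0.145 with anisomycin, which was not called. The receptor gene Ahr fell by 0.64 with imiquimod, beside -0.32 with anisomycin, which was not called. Ahrr was called with neither treatment (-0.15 and -0.03).

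In family 2, 14 of 44 genes changed with anisomycin (31.8%), 4 up and 10 down, against 45.6% of all genes. With imiquimod 9 changed (20.5%), 1 up and 8 down, against 42.7% of all genes. Several of those that fell had a nearly equal level in both treated groups. Cyp2d22, often taken as the mouse counterpart of human CYP2D6, read 7.01, 7.06 and 7.08 in anisomycin ears, 7.10, 6.94 and 7.12 in imiquimod ears, and 8.26, 8.73 and 8.40 in vehicle ears. It fell by 1.41 with each treatment (SE 0.11, adjusted p 7.24e-06 with anisomycin and 1.08e-05 with imiquimod).

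Cyp2e1, which oxidises ethanol and small solvents, read 4.74, 4.51 and 4.76 with anisomycin, 4.61, 4.57 and 4.78 with imiquimod, and 5.81, 6.00 and 5.65 in vehicle ears. It fell by 1.15 (SE 0.10, adjusted p 1.79e-05) and by 1.16 (adjusted p 2.29e-05). Cyp2f2, known from the airway, where it activates naphthalene, read 8.72, 9.20 and 9.13 with anisomycin, 8.88, 9.02 and 9.16 with imiquimod, and 10.34, 10.45 and 10.20 in vehicle ears. It fell by 1.31 with each treatment (SE 0.13, adjusted p 3.12e-05 with anisomycin and 4.19e-05 with imiquimod). The treatments differed by 0.01 in Cyp2e1 (adjusted p 0.95) and by -0.00 in Cyp2d22 and Cyp2f2 (adjusted p 0.995 and 0.999). The treated means of Cyp2e1, 4.67 and 4.66, lay below 5.49, where signal near background may hide a difference.

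Cyp2g1, a steroid and xenobiotic hydroxylase of the olfactory mucosa, had the largest fall and the widest spread. It read 6.01, 5.72 and 7.71 with anisomycin, 5.37, 6.50 and 6.36 with imiquimod, and 9.60, 9.10 and 8.04 in vehicle ears, so anisomycin replicate 3 came within 1 unit of vehicle replicate 3 without reaching it. It fell by 2.44 with anisomycin (SE 0.57, adjusted p 0.00581) and fell by 2.84 with imiquimod (adjusted p 0.00278). Cyp2w1 read 6.74, 6.54 and 7.13 with anisomycin, 6.83, 7.06 and 7.24 with imiquimod, and 8.31, 8.02 and 7.80 in vehicle ears, and fell by 1.24 (SE 0.18, adjusted p 0.000306) and by 1.00 (adjusted p 0.00136).

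The neighbouring genes Cyp2j9 and Cyp2j6 on chromosome 4 belong to a subfamily that turns arachidonic acid into epoxides. Cyp2j9 read 5.69, 5.81 and 5.71 in anisomycin ears, 6.11, 6.19 and 6.26 in imiquimod ears, and 7.68, 7.50 and 7.73 in vehicle ears, with no overlap among the 3 groups. It fell by 1.90 with anisomycin (SE 0.07, adjusted p 1.24e-07) and by 1.45 with imiquimod (adjusted p 9.17e-07), and was 0.45 lower in anisomycin than in imiquimod ears (adjusted p 0.00304). Cyp2j6 read 5.50, 5.99 and 6.41 in anisomycin ears, 6.93, 7.16 and 7.26 in imiquimod ears, and 7.71, 7.22 and 7.65 in vehicle ears. It fell by 1.56 with anisomycin (SE 0.22, adjusted p 0.000259), differed by -0.41 with imiquimod (adjusted p 0.162), and was 1.15 lower in anisomycin than in imiquimod ears (adjusted p 0.00621).

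Cyp2b19, the arachidonic acid epoxygenase of mouse keratinocytes, read 7.92, 8.55 and 9.08 with anisomycin, 9.97, 10.12 and 10.24 with imiquimod, and 10.94, 10.45 and 10.73 in vehicle ears. It was lowest on all 3 anisomycin arrays, and the imiquimod arrays also lay below all vehicle arrays. The fall was 2.19 with anisomycin (SE 0.25, adjusted p 7.61e-05), and the difference was -0.60 with imiquimod (adjusted p 0.0832), which passed under 7 of the alternative settings (adjusted p 0.00955 to 0.0395). Anisomycin ears were 1.59 below imiquimod ears (adjusted p 0.0029). Of 8 keratinocyte markers, 3 rose and 4 fell with anisomycin, and 4 rose and 1 fell with imiquimod. Their mean levels were 10.87 to 11.54, 11.68 to 11.81 and 11.24 to 11.66 in the anisomycin, imiquimod and vehicle arrays. Krt2, Lor and Krt10 fell by 1.78, 1.27 and 0.69 with anisomycin, beside -0.18, -0.36 and -0.06 with imiquimod, which were not called. Krt15 fell with both treatments, and Krt14, Krt1 and Ivl rose with both. The part of these cells in the Cyp2b19 values was not tested.

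Cyp2b10, the gene by which activity of the xenobiotic receptor CAR is usually read in liver, read 10.29, 10.51 and 10.64 in anisomycin ears, 9.36, 9.69 and 9.70 in imiquimod ears, and 9.70, 8.93 and 9.49 in vehicle ears. All anisomycin arrays were above the other 6, and the imiquimod arrays overlapped vehicle. It rose by 1.11 with anisomycin (SE 0.19, adjusted p 0.000874), differed by 0.21 with imiquimod (adjusted p 0.423), and was 0.90 higher in anisomycin than in imiquimod ears (adjusted p 0.00954). Smaller rises with anisomycin were called for Cyp2b9 (0.32), Cyp2c55 (0.20) and Cyp2a12 (0.20).

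Cyp2s1, an epithelial P450 found in skin, read 7.22, 7.29 and 7.54 with anisomycin, 7.43, 7.39 and 7.63 with imiquimod, and 7.20, 6.78 and 7.18 in vehicle ears, where replicate 2 was the lowest. It rose by 0.43 with imiquimod (SE 0.13, adjusted p 0.0213), a call that ended without imiquimod replicate 3 (adjusted p 0.0817) or vehicle replicate 2 (adjusted p 0.0551). The difference with anisomycin was 0.30 (adjusted p 0.0882). Of 13 Cyp2c genes, the main arachidonic acid epoxygenases of liver and kidney, 1 was called with anisomycin (7.69%) and 0 with imiquimod by limma. Of 9 Cyp2d genes Cyp2d22 and Cyp2d9 fell with each treatment (22.2%). The shares of all genes called were 45.6% with anisomycin and 42.7% with imiquimod. Cyp2u1, a fatty acid hydroxylase, fell by 0.35 and 0.42.

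In family 3, the main drug-oxidising family of liver, Cyp3a13 rose with anisomycin. It read 8.05, 7.82 and 7.76 with anisomycin, 6.73, 6.97 and 7.07 with imiquimod, and 7.04, 6.63 and 6.78 in vehicle ears. The rise was 1.06 (SE 0.13, adjusted p 9.9e-05), beside a difference of 0.11 with imiquimod (adjusted p 0.557), and anisomycin ears were 0.95 above imiquimod ears (adjusted p 0.00129). Cyp3a57 read 5.06, 5.79 and 6.15 with anisomycin, 5.66, 6.19 and 6.67 with imiquimod, and 6.60, 6.17 and 6.80 in vehicle ears. It fell by 0.86 with anisomycin (SE 0.31, adjusted p 0.0495), but the call ended under 10 of the alternative settings, and the fall was 0.56 without anisomycin replicate 1 (adjusted p 0.159). Cyp3a25 fell by 0.33 and 0.32, and Cyp3a44 fell by 0.27 with imiquimod.

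**Figure D3:**
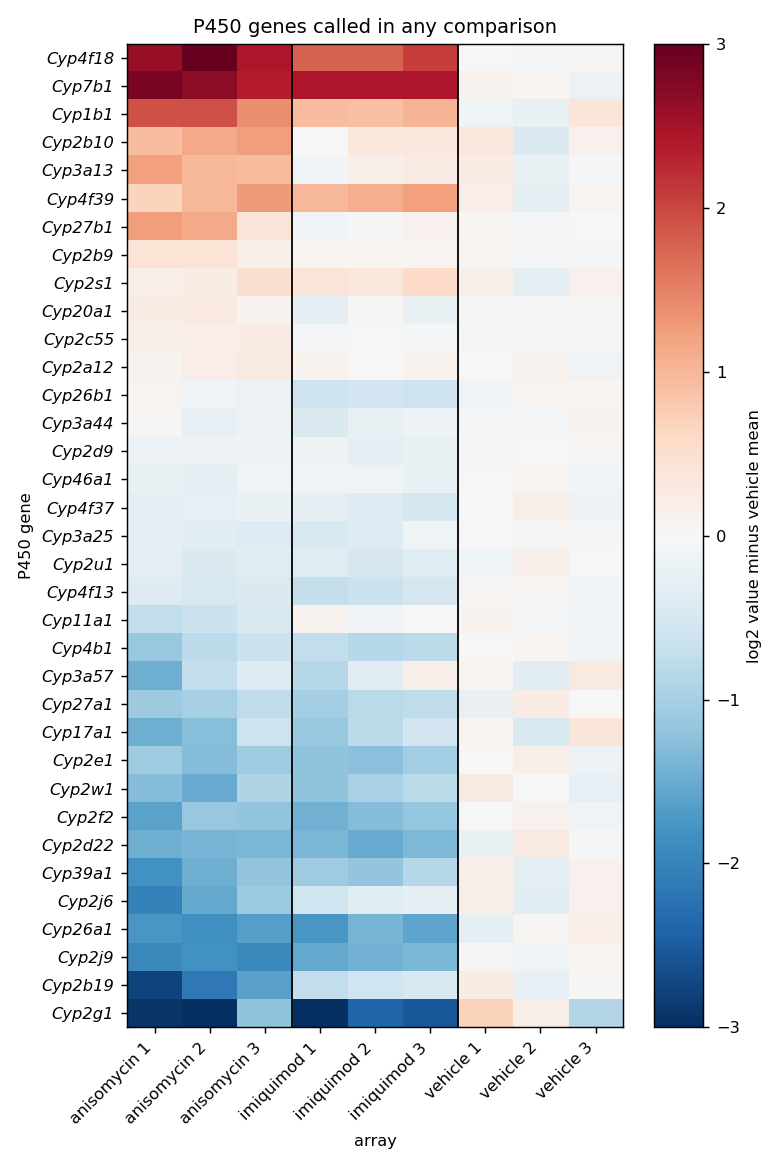
Difference of each of the 9 arrays from the mean of the 3 vehicle arrays (colour, log2 scale, red above and blue below, with the darkest colour for differences of 3 or more either way) for the 35 P450 genes called in at least 1 comparison, one row per gene and one column per array. Rows such as Cyp7b1 and Cyp4f18 are red on all 6 treated arrays, Cyp2j9, Cyp26a1 and Cyp2d22 are blue on all 6, and Cyp2b10, Cyp3a13 and Cyp27b1 are red on the anisomycin arrays.

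Family 2 genes on chromosome 7 show how close neighbours differed. In the RefSeq gene order, 11 members form a cluster there, with less than 1000000 bases between neighbours. Their order is Cyp2s1, Cyp2b10, Cyp2b13, Cyp2b9, Cyp2b23, Cyp2b19, Cyp2g1, Cyp2a22, Cyp2a12, Cyp2f2 and Cyp2t4. Cyp2r1 and Cyp2e1 also lie on chromosome 7, outside this cluster. In the cluster 3 genes rose and 3 fell with anisomycin, where 22.3% and 23.3% of all genes did. With imiquimod 1 rose and 2 fell, beside 20.4% and 22.4% of all genes. Cyp2b19 and Cyp2g1, next to each other, fell by 2.19 and 2.44 with anisomycin, and Cyp2b10 in the same cluster rose by 1.11. Cyp2b13, Cyp2b23, Cyp2a22 and Cyp2t4 were not called in any comparison, with anisomycin differences of 0.01, 0.30, -0.04 and 0.02. In the cluster of 12 Cyp2c genes on chromosome 19, 1 rose with anisomycin, and in that of 7 Cyp4f genes on chromosome 17, Cyp4f39 rose and Cyp4f13 fell with both treatments.

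**Figure D4:**
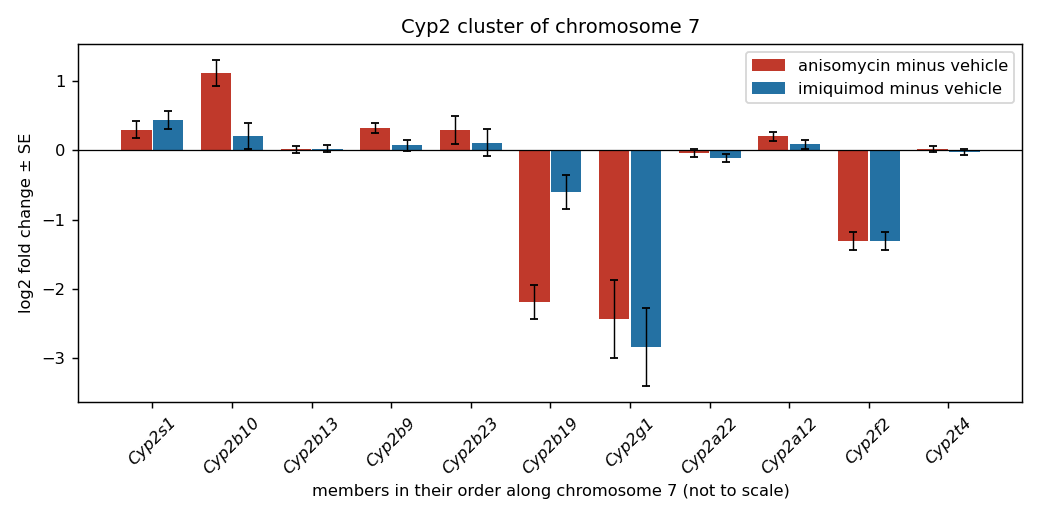
Log2 difference from vehicle of the 11 family 2 members of the chromosome 7 cluster, in gene order from left to right, for anisomycin and imiquimod (bars, each with 1 standard error either side). Cyp2b19 at -2.19 and Cyp2b10 at 1.11 with anisomycin lie on opposite sides of 0, and Cyp2g1 is far below 0 with both treatments.

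Set directly against imiquimod, anisomycin ears differed in 13 of the 84 members (15.5%), against 20.4% of all genes, with 9 higher and 4 lower, where 10.8% and 9.59% of all genes were. With array weights in the fit, 27 members differed, 18 higher and 9 lower, against 42.9% of all genes. At or above the median level of all genes 8 of 20 members differed, against 33.6% of all genes at such levels, and 3 of the 52 low members did, against 3.72% of all low genes. The 9 were Cyp1b1, Cyp2b9, Cyp2b10, Cyp2c55, Cyp3a13, Cyp4f18, Cyp20a1, Cyp26b1 and Cyp27b1, and the 4 were Cyp2b19, Cyp2j6, Cyp2j9 and Cyp11a1. Cyp20a1, whose substrate is unknown, read 7.58, 7.65 and 7.47 with anisomycin, 7.07, 7.39 and 7.17 with imiquimod, and 7.39, 7.31 and 7.39 in vehicle ears. It was called in this comparison (0.36, adjusted p 0.0174) and in neither comparison with vehicle. Anisomycin and imiquimod arrays did not overlap for 18 members, against 39.3% of all genes.

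**Figure D5:**
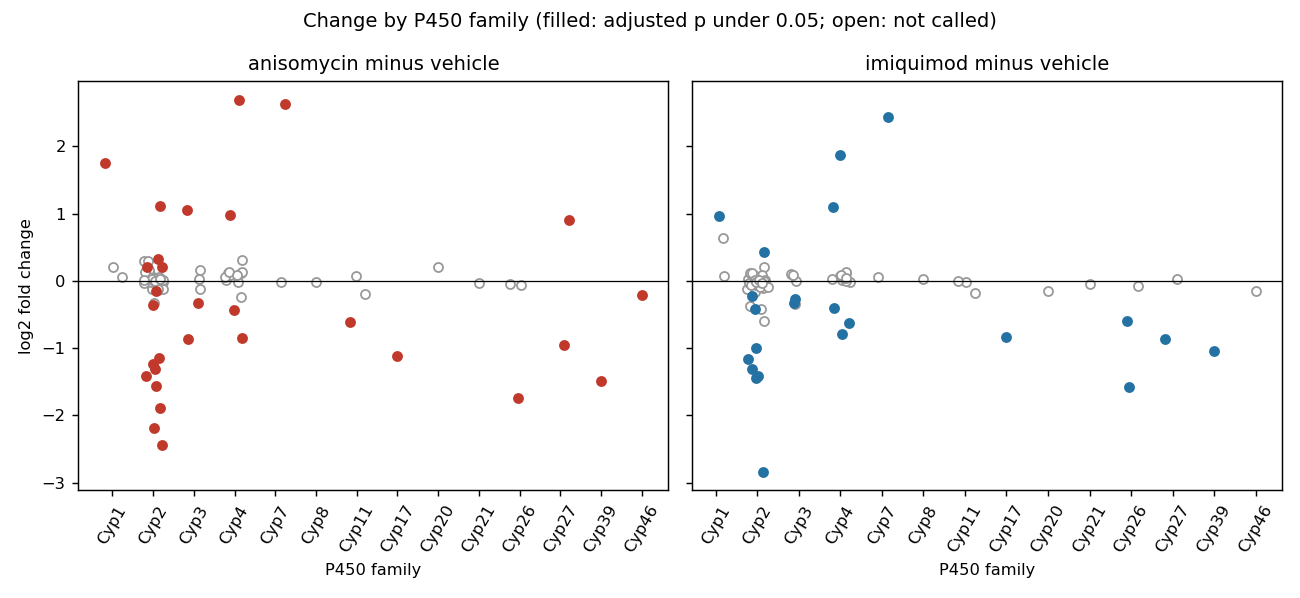
Log2 difference from vehicle of every one of the 84 P450 genes (points), by Cyp family, for anisomycin and imiquimod, with called genes marked apart from those not called. Most points of families 2 and 4 lie near 0, and the called genes lie on both sides, from Cyp2g1 at -2.44 to Cyp4f18 at 2.69 with anisomycin.

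Among genes linked to P450 enzymes, 18 for electron supply and heme handling, its breakdown included, were measured. Of these, 2 rose and 9 fell with anisomycin, and 3 rose and 4 fell with imiquimod. The heme-degrading Hmox1 rose by 1.75 with anisomycin and by 1.32 with imiquimod, and Alas1, the first enzyme of heme synthesis, rose by 0.85 and 1.25. Pgrmc2 and the electron donor Cyb5a fell by 0.96 and 0.70 with anisomycin, beside -0.26 and -0.01 with imiquimod, which were not called. Cpox rose by 0.96 with imiquimod, beside 0.39 with anisomycin, which was not called. Fech, which inserts the iron, fell by 0.61 with anisomycin and by 0.44 with imiquimod, and Alad fell by 0.46 and 0.44. Por, the reductase common to microsomal P450 enzymes, was not analysed here.

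Of 16 xenobiotic, lipid and clock-linked transcription factors, 3 rose and 6 fell with anisomycin, and 3 rose and 7 fell with imiquimod. Hlf, a circadian factor that with its relative Tef drives P450 genes in liver, fell by 2.64 with anisomycin and by 1.98 with imiquimod. Tef fell by 1.22 with anisomycin and by 1.04 with imiquimod, and Rora fell by 1.25 with anisomycin, beside -0.35 with imiquimod, which was not called. Nr4a1 (1.87 and 1.05) and Ppard (1.26 and 1.37) rose with both. The imiquimod arrays of Nr4a1, at 9.37, 7.74 and 8.72, overlapped its vehicle arrays, at 7.32, 7.53 and 7.84. Nr1i3, which encodes CAR, differed by -0.00 with anisomycin and 0.05 with imiquimod, and Nr1i2, which encodes the related receptor PXR, by 0.09 and -0.02, all not called. Of 6 epoxide hydrolases and P450-class enzymes with other symbols, 2 rose and 2 fell with anisomycin and 1 rose and 3 fell with imiquimod. Ephx3 rose by 2.65 and 2.19, Ephx1 fell by 1.02 and 1.29, Ephx2 fell by 0.67 and 0.59, and the prostacyclin synthase Ptgis fell by 0.82 with imiquimod, beside -0.32 with anisomycin, which was not called. Ephx4 rose by 0.22 with anisomycin, beside 0.08 with imiquimod, which was not called.

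Marker genes of other cell types of the ear also differed between the groups. Of 9 adipocyte markers 8 fell with each treatment, at mean levels of 6.66 to 6.87 in anisomycin, 7.03 to 7.13 in imiquimod and 7.81 to 8.35 in vehicle ears. Of 11 fibroblast markers, 2 rose and 8 fell with anisomycin and 1 rose and 9 fell with imiquimod, at 9.25 to 9.32, 9.10 to 9.26 and 9.82 to 9.94. All 10 muscle markers fell with each, at 7.70 to 7.92, 7.49 to 8.12 and 9.44 to 10.17, as did 7 and 6 of 9 cartilage markers, at 6.36 to 6.59, 6.58 to 6.63 and 7.18 to 7.44. Of 14 hair follicle markers 1 rose and 11 fell with anisomycin and 7 fell with imiquimod, at 5.83 to 5.97, 5.87 to 6.20 and 6.29 to 6.48. Of 10 sebaceous markers 1 rose and 5 fell with anisomycin and 3 rose and 3 fell with imiquimod, at 8.12 to 8.99, 8.99 to 9.45 and 8.78 to 9.11. Each range is given for anisomycin, imiquimod and vehicle arrays in that order, the array scale has no value of 0, and the part of these cells in the P450 values was not tested.

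Over the called members, anisomycin replicates were not equally far from vehicle. The distances were not computed over all genes. Of the 30 members called with anisomycin, replicate 1 lay farthest from the vehicle mean for 15, replicate 2 for 10 and replicate 3 for 5, with median distances of 1.24, 1.13 and 0.92. With imiquimod the counts were 10, 6 and 7 of 23.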

How the data were processed

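Total RNA of whole ear skin from 9 samples, 3 each treated with anisomycin, imiquimod or vehicle, was hybridised to Mouse Gene 1.0 ST arrays. The authors deposited log2 expression values made with RMA (background correction, quantile normalization and summary of probes per set), per the submitters' processing notes, which give no version. The array medians lay at 6.08 to 6.10 in vehicle and 6.01 to 6.03 in treated samples. Probe sets with 1 gene symbol were kept, and the set with the highest mean stood for each gene. limma 3.58.1 (R 4.3.3; lmFit, eBayes; 6 residual degrees of freedom) fitted the 3 groups to 19938 genes, and Benjamini-Hochberg adjusted p below 0.05 was a call. The fit was checked on simulated data. An exact permutation test of 3 against 3 cannot go below 0.1 and was not used.

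The members and gene lists were chosen with earlier results of these data known. Genes named with values were members called in any comparison with a log2 difference of at least 0.5, a fixed set of members, and of each pathway list up to 4 called genes by size in each comparison with vehicle. Other members are named in counts or in a clause and were chosen after their values were seen. The same holds for Ahr, Ahrr, Nqo1, Alad, Nr1i2, Nr1i3 and the keratinocyte markers named. It also holds for the second value given for a gene named in 1 comparison. Promoters were from RefSeq, GRCm38.p6. Probes that match near-identical genes and the number of arrays limit precision. Alternatives changed scaling, filters, array weights, the replicate block and the arrays used.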

Additional observations from a re-analysis of the deposited data

Results flagged for a closer look

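Besides the 84 genes, 7 probe sets carry several gene symbols that include a P450, so no single gene could be named for them and they entered no count above. A signal above the vehicle level appeared in one of these, which carries 2 symbols, both of the Cyp2a subfamily. It read 9.14, 8.66 and 8.54 in anisomycin ears, 4.66, 4.69 and 4.84 in imiquimod ears, and 4.91, 4.58 and 4.75 in vehicle ears. For these 7, limma was fitted to all 35556 probe sets and p was adjusted over them, in place of the 19938 genes. The difference was 4.03 with anisomycin against vehicle (SE 0.15, limma adjusted p 7.93e-07), a 16.3-fold level, and -0.02 with imiquimod (adjusted p 0.949). Anisomycin ears were 4.05 above imiquimod ears (adjusted p 6.41e-06). The anisomycin difference is larger than that of any of the 84 members, whose highest was 2.69 for Cyp4f18. Which of the symbols gives the signal was not tested.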

How the results depend on the processing

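With each array centred on its median, 22 members were higher with anisomycin against vehicle in place of 10, and 8 were higher with imiquimod in place of 5. This centring shifts all genes of an array alike, and the all-gene median difference moved from -0.01 to 0.07 with anisomycin and from -0.03 to 0.04 with imiquimod. The cause of the change in calls was not tested. With arrays centred on 1000 stable genes, 25% of the members' calls were higher with anisomycin and 17.2% with imiquimod. Over all genes 37.1% and 36.4% of the calls were higher under that scaling. With array weights, anisomycin against imiquimod gave 27 called members in place of 13, 18 higher and 9 lower, while 42.9% of all genes were called in place of 20.4%; the cause was not tested. Leaving out 1 array at a time gave 27 to 31 members called for anisomycin against vehicle (9 to 12 higher, 17 to 21 lower), 21 to 25 for imiquimod against vehicle (4 to 6 higher, 16 to 19 lower) and 10 to 15 for anisomycin against imiquimod (6 to 10 higher, 4 to 5 lower). In these fits a group of 2 arrays is assumed to vary like the others. With the replicate block the counts were 30, 23 and 12 for the 3 comparisons, beside 30, 23 and 13, and Cyp1a1 with imiquimod (adjusted p 0.00513) and Cyp2s1 with anisomycin (adjusted p 0.0325) passed. The same-numbered samples' deviations correlated between -0.20 and 0.20, so the numbers were not taken as pairs. No other count moved by over 1.5 times. Over the named genes, 0 values called in the main or the alternative fit turned direction. Direction was not compared for values called in neither. For the threshold, 1565 values kept their side of it, 30 passed it newly and 19 no longer passed. Those that left it were Cyp3a57, Cyp17a1, Cyp2s1, Cyp27b1 and Cyp1b1, with values given above. Those that joined it included Cyp1a1 and Cyp2b19 with imiquimod and Cyp2s1 with anisomycin under 3 other scalings (adjusted p 0.0389 to 0.0452), and with array weights Cyp26a1, Cyp2w1, Cyp39a1, Cyp4f13, Cyp7b1 and Cyp17a1 between the treatments. Signal near background limits the 52 low members, the treated values of Cyp26a1 and the vehicle means of Cyp4f18 and Cyp1a1.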

Other observations

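Cyp51, the sterol demethylase of cholesterol synthesis that stands outside the member rule, read 8.13, 8.61 and 8.96 in anisomycin ears, 9.22, 9.31 and 9.36 in imiquimod ears, and 8.50, 7.69 and 8.28 in vehicle ears. The anisomycin arrays overlapped vehicle and the imiquimod arrays did not. It rose by 1.14 with imiquimod (SE 0.23, limma adjusted p 0.00299), and its difference with anisomycin was 0.41 (adjusted p 0.187). Anisomycin and imiquimod ears differed by -0.73 (adjusted p 0.0526). A probe set that carries the symbol of a Cyp4v gene together with that of another gene differed from vehicle by -0.41 with anisomycin and -0.45 with imiquimod. The adjusted p was 0.000505 and 0.000373, from limma fitted to all 35556 probe sets.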
